A study of Rattus norvegicus with 9 samples.

Results

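The axon guidance ligands and receptors described here are the protein-coding genes whose symbols belong to the semaphorin (Sema), plexin (Plxn), Slit, Robo, ephrin (Efna, Efnb) and Eph receptor (Epha, Ephb) families, together with Nrp1 and Nrp2, the neuropilins. They were chosen by biotype and symbol alone, leaving out the Slitrk genes, and number 60 of the 37991 genes in the deposited count table. There are 31 ligands, made up of 7 class 3 semaphorins, 13 other semaphorins, 3 Slits, 5 ephrin-As and 3 ephrin-Bs. The 29 receptors are 2 neuropilins, 9 plexins, 4 Robos, 9 EphA receptors and 5 EphB receptors. The deposited gene descriptions named the matching family for all 60.

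Messenger RNA of the medial prefrontal cortex (mPFC) was sequenced from Wistar Kyoto rats (an inbred strain that shows depression-like behaviour) on day 15, with 3 libraries in each of 3 groups. K4 rats had 7 days of K4, a compound known here only by that code, given intravenously through a cannula, and Ketamine rats had 7 days of ketamine, an NMDA receptor antagonist, given subcutaneously. Both compounds were then withdrawn for 7 days, whereas Control rats received no treatment. Compound and route of dosing therefore cannot be told apart. Against Control, neither can be told apart from the cannula or injection and the handling that came with dosing. The labels give no dose, vehicle, age or sex, and none says that each library came from its own animal, so p-values measure only the spread between these libraries, which may be technical.

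Semaphorins act through plexins, with neuropilins as ligand-binding partners for most secreted class 3 members. Slits act through Robo receptors, and the membrane-bound ephrins act on Eph receptor tyrosine kinases and can also signal back into the cell that carries them. These proteins steer growing axons during development, and in the adult cortex many of them are found at synapses, where they act on dendritic spines and on the contacts between neurons and glia.

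Library totals were 28495399 to 32735785 counts in K4, 27122207 to 33837450 in Ketamine and 40863756 to 42731004 in Control. Every Control total lay above every treated total, so that depth and treatment cannot be told apart. The 13 mitochondrially encoded protein genes took 10.41% to 11.4% of counts in K4, 10.6% to 11.8% in Ketamine and 11.6% to 19.0% in Control, where Control library 2 was the highest. Control library 2 also had the highest summed level of 8 astrocyte markers, a normalised read count of 4236 CPM (counts scaled to library size), against 2651 and 3018 CPM in the other Control libraries. The tissue label was checked on marker lists. The 6 excitatory neuron markers summed to 2044 to 2190 CPM in K4, 1932 to 2038 CPM in Ketamine and 2140 to 2415 CPM in Control, and the 7 choroid plexus and ependyma markers reached at most 3.07 CPM in a library. The members together held 0.284% to 0.345% of the counts of a library. In bulk tissue, fewer cells of a type and less RNA per cell cannot be told apart.

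Promoter sequences are shown for 3 members whose differences from Control, given below, remained called after allowance for transcript length: Epha6 and Efna5, an ephrin-A receptor and an ephrin-A ligand that were lower after ketamine, and Epha10, an Eph receptor without kinase activity that was higher after both compounds. Each runs from 250 bases before to 50 bases after the gene's start in RefSeq (build GRCr8, not the build of the deposited counts), read 5′ to 3′ along the gene's strand. They lie at chr11:53226534-53226833 on the plus strand, chr9:110042138-110042437 on the minus strand and chr5:142424046-142424345 on the plus strand, in the order printed. Capitals mark matches, on either strand, to any of 5 motifs searched, and those found here are GC boxes (GGGCGG) and E-boxes (CACGTG).
Epha6: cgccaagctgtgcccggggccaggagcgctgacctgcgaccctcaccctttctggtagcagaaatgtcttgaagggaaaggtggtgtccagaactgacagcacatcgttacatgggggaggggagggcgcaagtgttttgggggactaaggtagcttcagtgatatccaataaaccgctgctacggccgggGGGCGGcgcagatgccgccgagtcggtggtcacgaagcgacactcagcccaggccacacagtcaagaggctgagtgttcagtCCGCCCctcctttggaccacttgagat
Efna5: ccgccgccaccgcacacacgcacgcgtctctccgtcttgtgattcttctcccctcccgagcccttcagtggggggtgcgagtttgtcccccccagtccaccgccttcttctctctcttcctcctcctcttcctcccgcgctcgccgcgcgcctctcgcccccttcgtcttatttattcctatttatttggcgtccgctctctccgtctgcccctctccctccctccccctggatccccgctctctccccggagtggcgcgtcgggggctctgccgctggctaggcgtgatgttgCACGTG
Epha10: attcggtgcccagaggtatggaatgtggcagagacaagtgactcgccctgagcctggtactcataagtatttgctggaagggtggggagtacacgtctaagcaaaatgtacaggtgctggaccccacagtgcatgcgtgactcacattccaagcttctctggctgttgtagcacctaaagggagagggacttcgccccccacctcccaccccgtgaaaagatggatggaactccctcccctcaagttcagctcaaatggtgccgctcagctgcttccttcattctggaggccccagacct

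The Epha6 promoter held 2 GC boxes, the Efna5 promoter 1 E-box and the Epha10 promoter neither. Of the 60 members, 48 had a promoter in the RefSeq table, and 26 of these (54.2%) held a GC box, against 33.1% of all 33469 promoters of the table. The members are protein-coding, whereas the table was not limited by biotype or expression. These shares may therefore set unlike groups of genes side by side. An E-box was found in 8.33% of the members' promoters and 6.42% of all, and a cAMP response element (TGACGTCA, the same on both strands) in 2.08% and 1.83%. The TATA box (TATAAA) was in none of the 48 and in 14.2% of all, and the EGR site (GCGTGGGCG) in 3 of the 48 and in 0.544% of all. An EGR site followed by G also holds a GC box, and each motif was counted on its own. Median GC content was 62.2% in the members' promoters and 51.7% in all. These matches describe letters in a window and say nothing of whether a factor binds there.

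Levels of the members are compared with each other in the deposited TPM, which scale each transcript to its length and to the library. The ligands with the highest level in each family were Sema7a, a membrane-anchored semaphorin, Efnb3, a transmembrane ephrin, Slit1, a secreted Robo ligand, Efna3, an ephrin anchored by a lipid, and Sema3c, a secreted semaphorin. Sema7a stood at 71.6 ± 6.92 TPM in K4, 62.1 ± 2.72 in Ketamine and 56.1 ± 8.43 in Control (SD, n = 3). Efnb3 stood at 60.9 ± 5.19 TPM in K4, 62.1 ± 1.0 in Ketamine and 44.8 ± 7.66 in Control. Slit1 stood at 60.4 ± 1.0 TPM in K4, 48.0 ± 3.78 in Ketamine and 44.9 ± 14.4 in Control. Sema7a led in K4 and Control, whereas in Ketamine Sema7a and Efnb3 were level, and Efnb3 and Slit1 lay within 1 SD of each other in K4 and in Control. Efna3 followed with 40.5 ± 1.83 TPM in K4, 39.7 ± 4.91 in Ketamine and 31.2 ± 5.95 in Control. Sema3c, the highest of the secreted class 3 semaphorins, stood at 26.6 ± 0.528 TPM in K4, 22.7 ± 2.47 in Ketamine and 21.2 ± 4.48 in Control, and the remaining members of its class lay between 3.41 and 10.6 TPM in every group.

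Among the receptors, Eph receptors had the highest levels. Ephb6, an Eph receptor without kinase activity, stood at 83.1 ± 1.57 TPM in K4, 78.2 ± 2.77 in Ketamine and 74.0 ± 23.6 in Control. Epha4, which binds both ephrin classes, stood at 71.1 ± 6.37 TPM in K4, 75.7 ± 1.30 in Ketamine and 76.4 ± 19.0 in Control. These 2 receptors did not differ beyond their spread in Control, and Epha5 came after them. Plxna1, a plexin that pairs with neuropilins, was the highest plexin with 39.3 ± 2.98 TPM in K4, 32.5 ± 1.85 in Ketamine and 33.5 ± 6.63 in Control. Robo2, the highest of the Slit receptors, stood at 33.2 ± 2.22 TPM in K4, 31.9 ± 1.22 in Ketamine and 33.6 ± 7.80 in Control. The neuropilins were close to each other: Nrp2 stood at 12 ± 1.66 TPM in K4, 11.4 ± 2.26 in Ketamine and 12 ± 1.66 in Control. Efna4, Epha2, Robo3, Robo4 and Epha1 stayed below 2 TPM on average in every group. Epha1 held 4 to 20 counts per library, failed the filter on low counts and was not tested.

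**Figure D1:**
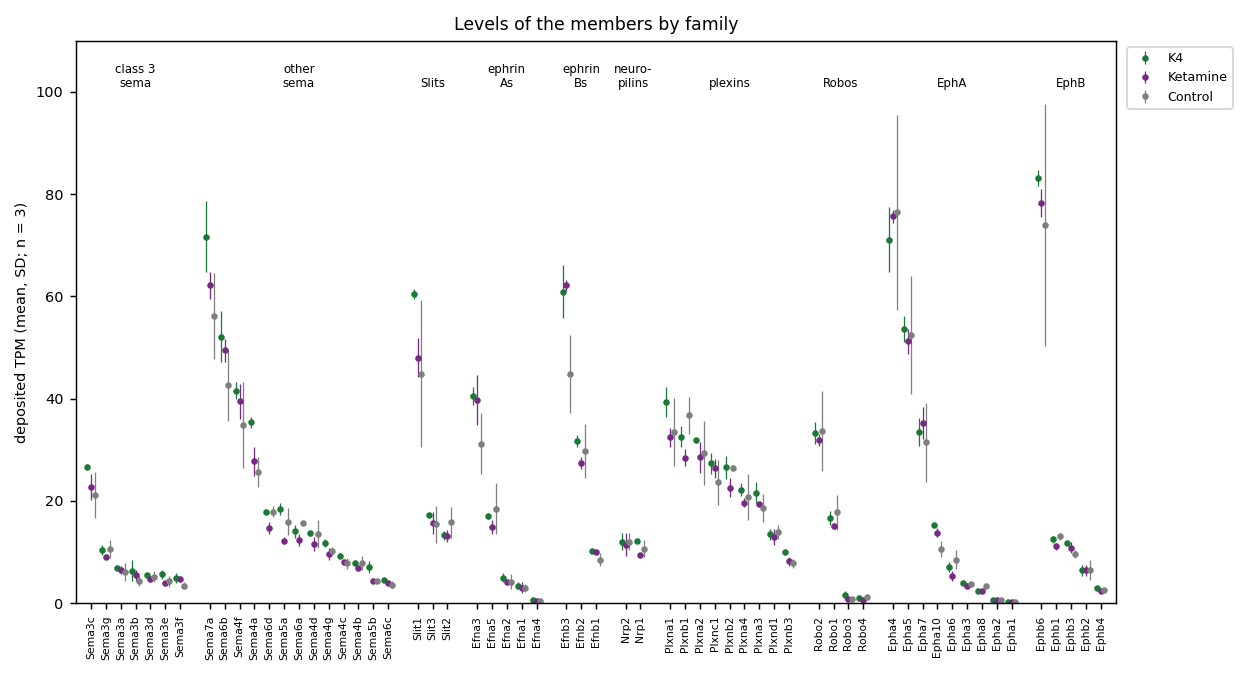
Deposited TPM (y axis, linear from 0) of all 60 members, grouped by family and ordered by mean level within it. Points are group means and bars the SD over 3 libraries, with K4 in green, Ketamine in purple and Control in grey; Ephb6, Epha4 and Sema7a are the highest, and Control bars are the widest for many members, as for Ephb6 (74.0 ± 23.6 TPM).

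Summed over the 60 members, deposited TPM reached 1191 to 1262 in K4 libraries, 1074 to 1152 in Ketamine libraries and 911 to 1296 in Control libraries, and the 3 ranges overlapped except K4 with Ketamine. The 31 ligands summed to 631 ± 10.6 TPM in K4, 558 ± 21.8 in Ketamine and 527 ± 90.9 in Control. The 29 receptors summed to 606 ± 29.3 TPM in K4, 564 ± 24.5 in Ketamine and 579 ± 102 in Control. The lowest sums in Control all came from library 2, the one with 19.0% mitochondrial counts.

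The first comparison asks which members differed from untreated rats a week after the last K4. Epha10, Efnb3 and Sema5b were higher after K4 and Slit2 and Epha8 lower, with log2 fold changes of 0.28 to 0.50 for the first 3 and of −0.41 and −0.67 for the others. A gene was called at an edgeR quasi-likelihood Benjamini-Hochberg adjusted p below 0.05 over the 18047 genes tested, and 59 members were tested. Of these, 5 were called, which is read against the 6.07% of all genes tested that were called. The 3 members called higher stand beside 2.27% of all genes and the 2 called lower beside 3.8%.

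Among the ligands, Efnb3 (gene ID 360546), which in development forms a repellent midline barrier, had 97.6, 88.0 and 85.6 CPM in K4 libraries, against 76.2, 69.7 and 77.8 CPM in Control libraries. All 3 K4 libraries lay above all Control libraries (log2 fold change 0.28, SE 0.065, edgeR adjusted p = 0.028). Such separation, here and below, comes from the same libraries as the test and adds no support to a call. Its share over all genes is not given here. Sema5b (gene ID 303901), a transmembrane semaphorin with thrombospondin repeats, had 13.4, 11.4 and 9.59 CPM in K4 libraries, against 7.71, 8.55 and 8.06 CPM in Control libraries. The K4 libraries were again all higher, with a wide spread among themselves (log2 fold change 0.50, SE 0.12, edgeR adjusted p = 0.034). Slit2 (gene ID 360272), a secreted repellent that binds Robo1 and Robo2, had 54.3, 49.6 and 49.0 CPM in K4 libraries, against 69.2, 62.0 and 72.5 CPM in Control libraries. It fell in K4 without overlap (log2 fold change −0.41, SE 0.094, edgeR adjusted p = 0.026). The other Slits were not called: Slit1 had a log2 fold change of 0.28 and Slit3 of 0.0076.

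Among the receptors, Epha10 (gene ID 298528) had 40.5, 41.9 and 39.9 CPM in K4 libraries, against 29.9, 32 and 33.7 CPM in Control libraries. It had the smallest p of all members in this comparison (log2 fold change 0.36, SE 0.068, edgeR adjusted p = 0.013). Epha8 (gene ID 60589), an ephrin-A receptor at a low level in this tissue, had 5.91, 4.77 and 5.17 CPM in K4 libraries, against 8.34, 9.72 and 7.10 CPM in Control libraries. All K4 libraries were below all Control libraries (log2 fold change −0.67, SE 0.16, edgeR adjusted p = 0.033). No class 3 semaphorin, ephrin-A, neuropilin, plexin, Robo or EphB receptor was called by edgeR. At an unadjusted p below 0.05 these families held 1, 2, 0, 2, 2 and 1 members in that order, and DESeq2 called Robo1 and Plxnb1 among them. The smallest p among members not called belonged to Sema4a, a transmembrane semaphorin also known from immune cells (log2 fold change 0.28, edgeR adjusted p = 0.054). By family, the smallest p was that of Sema3f in class 3 (log2 fold change 0.36, edgeR adjusted p = 0.16), Efna3 in the ephrin-As (0.22, 0.13) and Nrp2 in the neuropilins (−0.15, 0.52). For the plexins it was Plxnb1 (−0.37, edgeR adjusted p = 0.13), for the Robos Robo1 (−0.21, 0.063) and for the EphB receptors Ephb1 (−0.26, 0.13).

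Over the 59 members the median log2 fold change of K4 against Control was 0.022, and over all genes tested it was −0.0046. Log2 fold changes were negative for 27 of 59 members (45.8%) and for 50.7% of all genes tested. The 31 ligands had a median of 0.089 with 9 negative, and the 28 receptors tested a median of −0.079 with 18 negative, and this difference between ligands and receptors was not tested. The calls varied with the libraries, for the members as for all genes, of which 1095 were called in all. None of the 59 members was called without Control library 1, without K4 library 1 or without K4 library 2, where 174, 239 and 346 of all genes were. Without K4 library 3 the calls were Epha10 and Sema5b, beside 228 of all genes. There were 12 calls (5 higher, 7 lower) without Control library 2, which lost Epha8, and 9 (6 higher, 3 lower) without Control library 3, which lost Slit2, beside 1548 and 1528 of all genes. Leaving out Ketamine library 2 or 3 left 4 calls each time, without Sema5b, beside 721 and 698 of all genes. This takes away no library of the comparison, and changes the shared estimate of spread, the filter, the scaling and the adjustment.

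**Figure D2:**
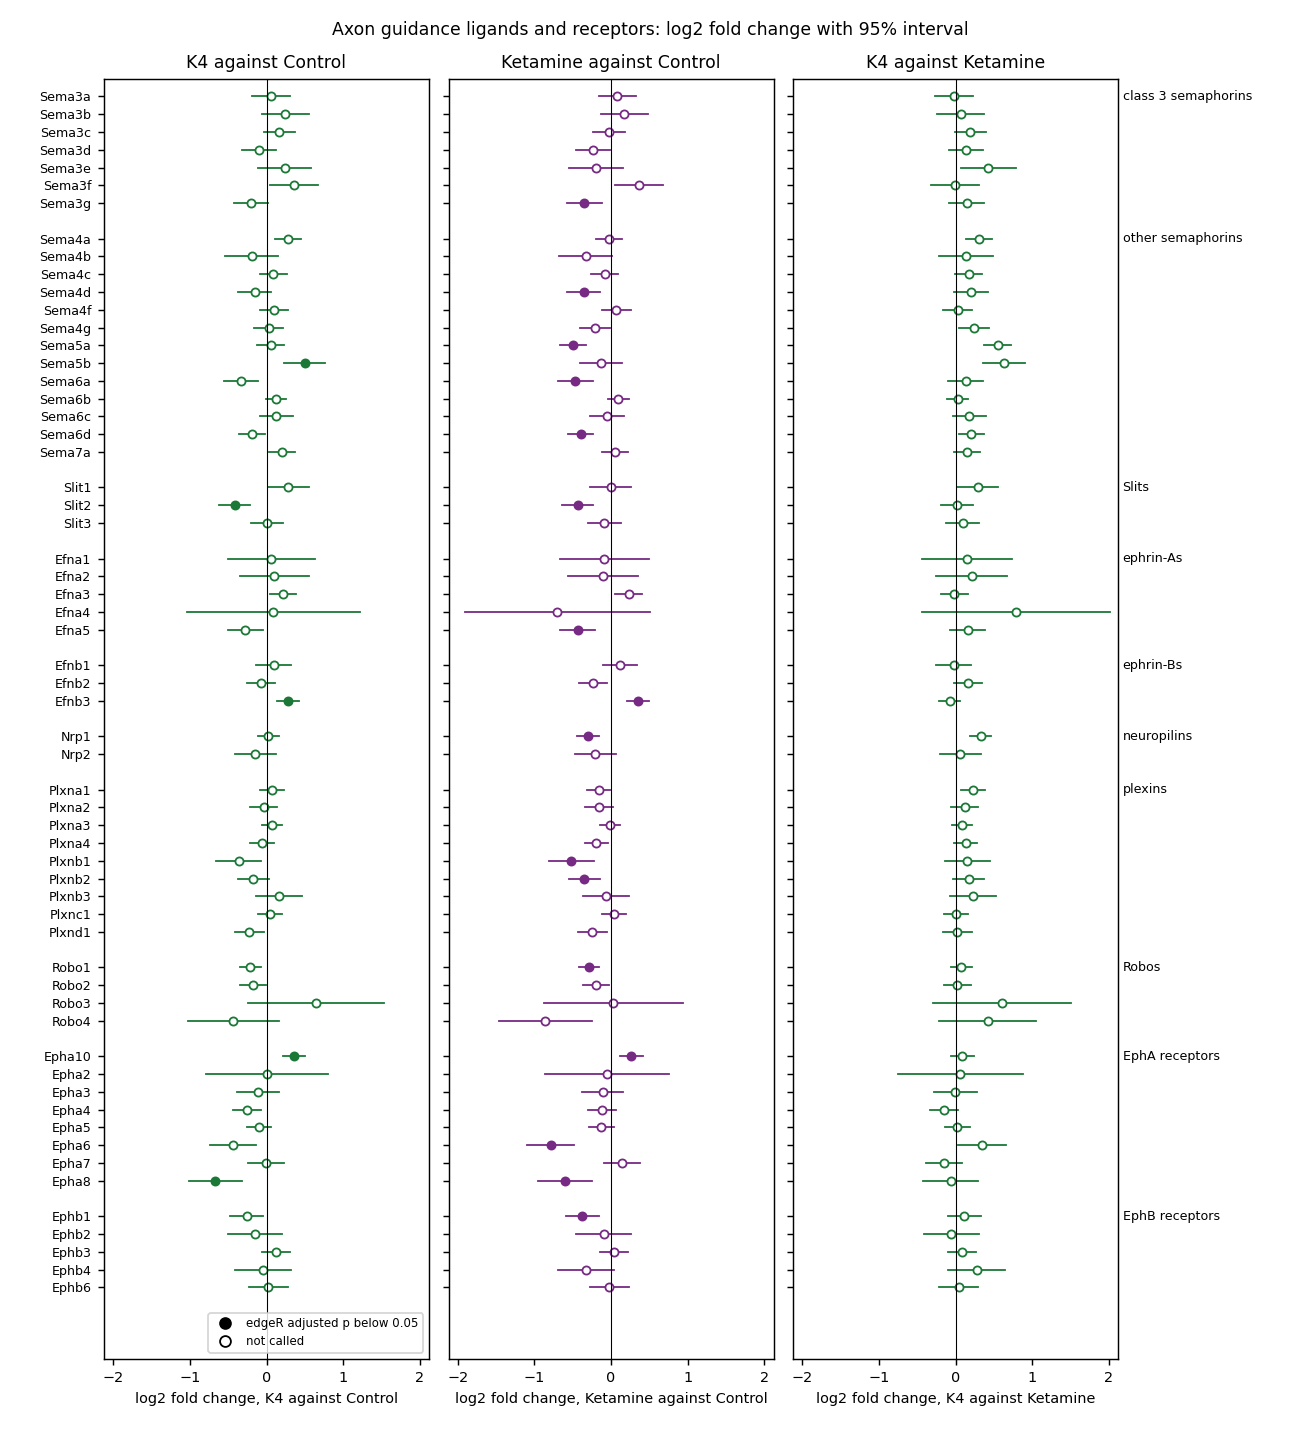
Log2 fold changes (x axes) with 95% intervals for the 59 members tested (rows, grouped by family), for K4 against Control, Ketamine against Control and K4 against Ketamine. Filled points have an edgeR adjusted p below 0.05: 5 in the first panel, 16 in the second and none in the third, where most points lie to the right of 0.

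The second comparison asks the same a week after the last ketamine, and uses the same Control libraries. More members differed: 14 were lower and 2, Efnb3 and Epha10, were higher. The 16 called members are read against 16.7% of all genes tested, the 14 lower ones against 9.75% and the 2 higher ones against 6.95%. The lower members were 4 transmembrane semaphorins (Sema5a, Sema6a, Sema6d and Sema4d), the secreted Sema3g, Slit2, the ephrin Efna5, and the receptors Nrp1, Plxnb1, Plxnb2, Robo1, Epha6, Epha8 and Ephb1. Every family other than the ephrin-Bs held at least 1 member called lower.

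Among the semaphorins, Sema5a (gene ID 310207), a relative of Sema5b that binds plexin-A receptors, had 67.3, 58.7 and 63.7 CPM in Ketamine libraries, against 94.8, 83.1 and 90.2 CPM in Control libraries. The groups were well separated (log2 fold change −0.50, SE 0.080, edgeR adjusted p = 0.0018), the smallest p of any member. Sema6d (gene ID 311384), which signals through plexin-A1, had 72.6, 62.9 and 63.8 CPM in Ketamine libraries, against 83.4, 97.5 and 81.7 CPM in Control libraries (log2 fold change −0.40, edgeR adjusted p = 0.0046). Sema6a (gene ID 361324), a ligand of plexin-A2 and plexin-A4, had 48.0, 40.7 and 42.1 CPM in Ketamine libraries, against 60.1, 67.7 and 52.9 CPM in Control libraries (log2 fold change −0.47, edgeR adjusted p = 0.011). In both, Control library 2 was the highest library and no Ketamine library reached the Control range. Sema4d (gene ID 306790), the ligand of plexin-B1, had 21.7, 25.6 and 21.3 CPM in Ketamine libraries, against 25, 30.03 and 32.6 CPM in Control libraries. Its groups overlapped (log2 fold change −0.35, edgeR adjusted p = 0.029). Sema3g (gene ID 290562), a secreted ligand of neuropilin-2 made by blood vessels, had 15.7, 16.8 and 16.2 CPM in Ketamine libraries, against 17.4, 22.6 and 22.1 CPM in Control libraries (log2 fold change −0.35, edgeR adjusted p = 0.039). The gap between the nearest libraries of the 2 groups was small in Sema3g.

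Slit2 had 57.8, 43.7 and 49.5 CPM in Ketamine libraries, against 69.2, 62.0 and 72.5 CPM in Control libraries (log2 fold change −0.43, SE 0.094, edgeR adjusted p = 0.0088). Its receptor Robo1 (gene ID 58946) had 61.1, 59.0 and 58.7 CPM in Ketamine libraries, against 74.7, 67.5 and 76.0 CPM in Control libraries (log2 fold change −0.29, SE 0.062, edgeR adjusted p = 0.0084). Both were lower in all Ketamine libraries than in any Control library. Nrp1 (gene ID 246331), which binds Sema3a and also the vascular growth factor VEGF, had 27.7, 27.9 and 27 CPM in Ketamine libraries, against 32.9, 33.7 and 35.3 CPM in Control libraries. Its 3 Ketamine libraries lay within 1 CPM of each other (log2 fold change −0.30, SE 0.065, edgeR adjusted p = 0.0083). Plxnb1 (gene ID 316009), the receptor of Sema4d, had 129.9, 116 and 118 CPM in Ketamine libraries, against 160.2, 217 and 144 CPM in Control libraries (log2 fold change −0.52, edgeR adjusted p = 0.024). Plxnb2 (gene ID 315217), a receptor of class 4 semaphorins, had 81.4, 68.8 and 69.1 CPM in Ketamine libraries, against 88.6, 107 and 83.3 CPM in Control libraries (log2 fold change −0.35, edgeR adjusted p = 0.024). For both plexins Control library 2 stood above the other Control libraries.

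In the ephrin and Eph families the changes ran both ways. Epha6 (gene ID 29202), an ephrin-A receptor of cortical neurons whose promoter is printed above, had 15.6, 10.8 and 11.7 CPM in Ketamine libraries, against 22.2, 19.6 and 23.9 CPM in Control libraries. Its log2 fold change of −0.78 (SE 0.14, edgeR adjusted p = 0.0035) was the largest of any called member in either direction. Efna5 (gene ID 116683), a lipid-anchored ligand of EphA receptors, had 27.9, 23.7 and 26.2 CPM in Ketamine libraries, against 35.7, 29.1 and 40.5 CPM in Control libraries (log2 fold change −0.44, edgeR adjusted p = 0.014). Epha8 had 5.99, 4.38 and 6.13 CPM in Ketamine libraries, against 8.34, 9.72 and 7.10 CPM in Control libraries (log2 fold change −0.60, edgeR adjusted p = 0.023). Ephb1 (gene ID 24338), a receptor of ephrin-Bs, had 24.6, 27 and 26.4 CPM in Ketamine libraries, against 31.1, 40.1 and 30.1 CPM in Control libraries (log2 fold change −0.38, edgeR adjusted p = 0.021). In all 4 of these, each Ketamine library was below each Control library. Efnb3 had 94.1, 94.8 and 96.9 CPM in Ketamine libraries, against 76.2, 69.7 and 77.8 CPM in Control libraries, and was higher without overlap (log2 fold change 0.35, SE 0.065, edgeR adjusted p = 0.0035). Epha10 had 36.3, 40.2 and 38.6 CPM in Ketamine libraries, against 29.9, 32 and 33.7 CPM in Control libraries, and was likewise higher (log2 fold change 0.27, SE 0.068, edgeR adjusted p = 0.018). Among ephrin-B members that were not called, Efnb2, a ligand of EphB receptors and Epha4, stood at a log2 fold change of −0.23 with an edgeR adjusted p of 0.074. Among the Robos, Robo4, a receptor of endothelial cells, stood at −0.86 and under 3 CPM with an edgeR adjusted p of 0.055.

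**Figure D3:**
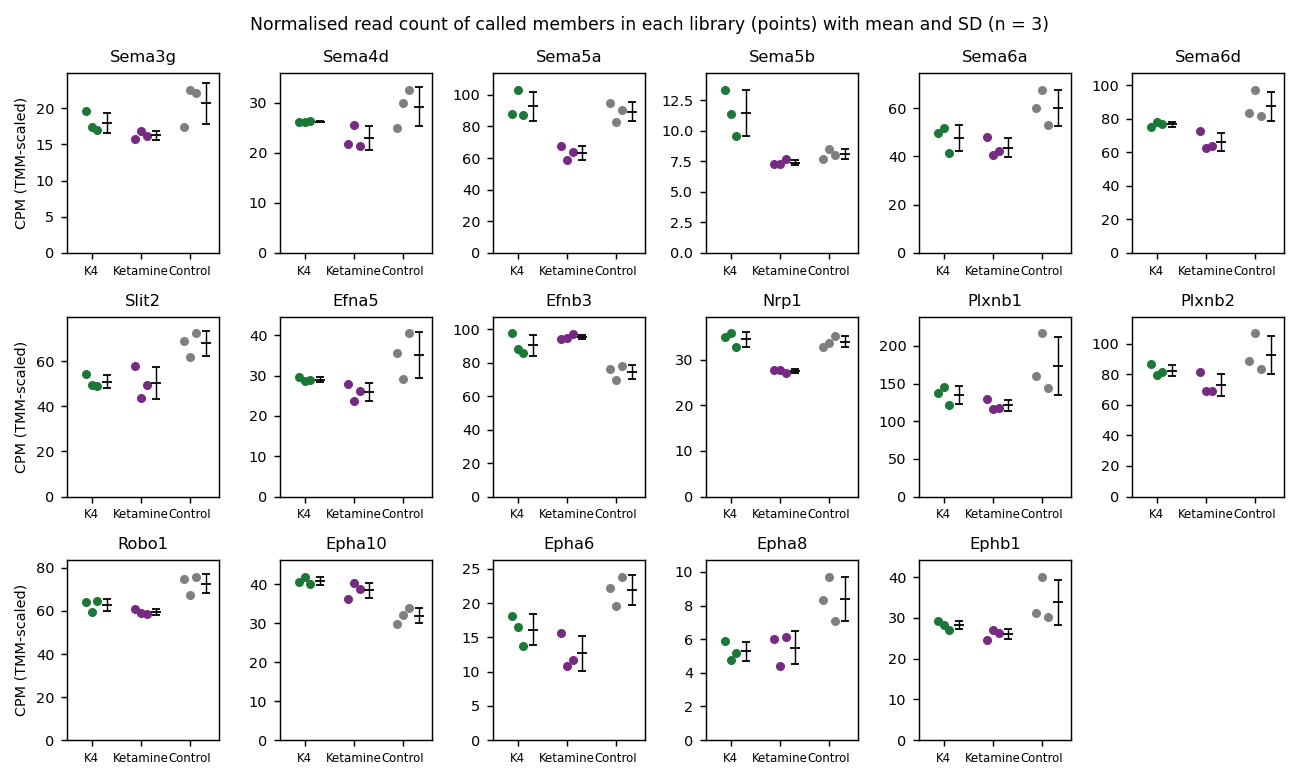
Normalised read counts (CPM, y axes from 0) of the 17 members called in K4 or Ketamine against Control, 1 panel each. Points are libraries (K4 green, Ketamine purple, Control grey), with the mean and SD (n = 3) in black beside them; Efnb3 and Epha10 sit above Control in both treated groups, and the Sema5a and Nrp1 points are low in Ketamine alone.

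The median log2 fold change of the 59 members was −0.13 in Ketamine against Control, and that of all genes tested was −0.0023. It was negative for 45 of 59 members (76.3%) and for 50.3% of all genes tested. Ligands had a median of −0.087 with 22 of 31 negative, and receptors a median of −0.16 with 23 of 28 negative. Leaving out single libraries gave 8 calls among the members without Ketamine library 2 and 8 without Ketamine library 3, where calls over all genes fell to 1177 and 1556, against 3013 with all libraries. It gave 17 without Ketamine library 1 (2591 of all genes), and 13, 18 and 14 without Control libraries 1, 2 and 3 (1811, 3058 and 3191 of all genes). Without K4 libraries 1, 2 and 3 it gave 16, 16 and 15 (2556, 2926 and 2580 of all genes). Sema5a, Sema6d, Slit2, Nrp1, Robo1, Epha6 and Efnb3 were called in all 9 of these fits. The other 9 lost their call in some of them, with largest edgeR adjusted p of 0.060 (Sema6a) to 0.12 (Sema4d). Sema6a, Plxnb1 and Plxnb2 were lost without Ketamine library 2 or 3, Ephb1 without any 1 Ketamine library, and Epha10 without Control library 1 or Ketamine library 2 or 3. Efna5 was lost without Control library 1 or 3 or Ketamine library 2 or 3, and Epha8 without Control library 1 or 2 or Ketamine library 2. Sema4d was lost without Control library 2 or 3 or Ketamine library 1 or 3, and Sema3g without those, K4 library 3 or Ketamine library 2.

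Transcript length moved with these results. Counts of long transcripts made up a larger part of the Control libraries: per doubling of length, log2 CPM relative to the gene's mean changed by −0.020 to 0.0016 in K4, −0.066 to −0.018 in Ketamine and 0.043 to 0.071 in Control. Every Control library lay above every treated library here, so that this trend and treatment cannot be told apart. Most members are long. The length implied by deposited counts and FPKM had a median of 5.61 kb over the 59 members and 2.93 kb over all genes tested, and 54 of 59 members lay above 2.93 kb. The 14 members lower after ketamine ran from 4.06 to 11.97 kb (median 7.09 kb). Genes were split by length into 10 bins of equal size. In the bin of the longest genes (6.93 kb and more), which held 20 members, the median log2 fold change of all genes was −0.15 for K4 and −0.23 for Ketamine, and that of the members there was −0.079 and −0.19. In that bin 37.0% of all genes were called lower after ketamine.

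A further fit took this length trend out of each library. After ketamine it left 7 members called, 4 higher and 3 lower, beside 7.65% of all genes (3.32% higher, 4.33% lower), and the members' median log2 fold change became 0.0025. Epha6 (log2 fold change −0.66, edgeR adjusted p = 0.013), Efna5 (−0.38, 0.047), Efnb3 (0.38, 0.0052) and Epha10 (0.43, 0.0051) kept their calls and directions. Efnb2 (−0.37, edgeR adjusted p = 0.024), Plxnc1, the receptor of Sema7a (0.26, 0.029), and Plxna3, a plexin of secreted semaphorins (0.22, 0.035), were called in this fit and not without it. The other 12 members, Sema5a, Sema6d, Slit2, Nrp1 and Robo1 included, were not called in it, with edgeR adjusted p from 0.082 (Epha8) to 0.70 (Robo1). The fold changes of these 12 moved by unequal amounts. Epha8 stood at −0.48 with the term and −0.60 without it, and Sema3g at −0.28 and −0.35, whereas Sema5a stood at −0.20 and −0.50 and Robo1 at −0.044 and −0.29. After K4 it left Sema5b (0.54, edgeR adjusted p = 0.043), Efnb3 (0.30, 0.035) and Epha10 (0.46, 0.011), beside 2.37% of all genes (1.2% higher, 1.16% lower), while Slit2 (−0.26, edgeR adjusted p = 0.097) and Epha8 (−0.59, 0.067) were not called. Without the term Slit2 stood at −0.41 and Epha8 at −0.67. Efnb3 and Epha10 were thus called higher after both compounds with and without the length term. Whether length itself accounts for the lower levels of the long members was not tested.

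**Figure D4:**
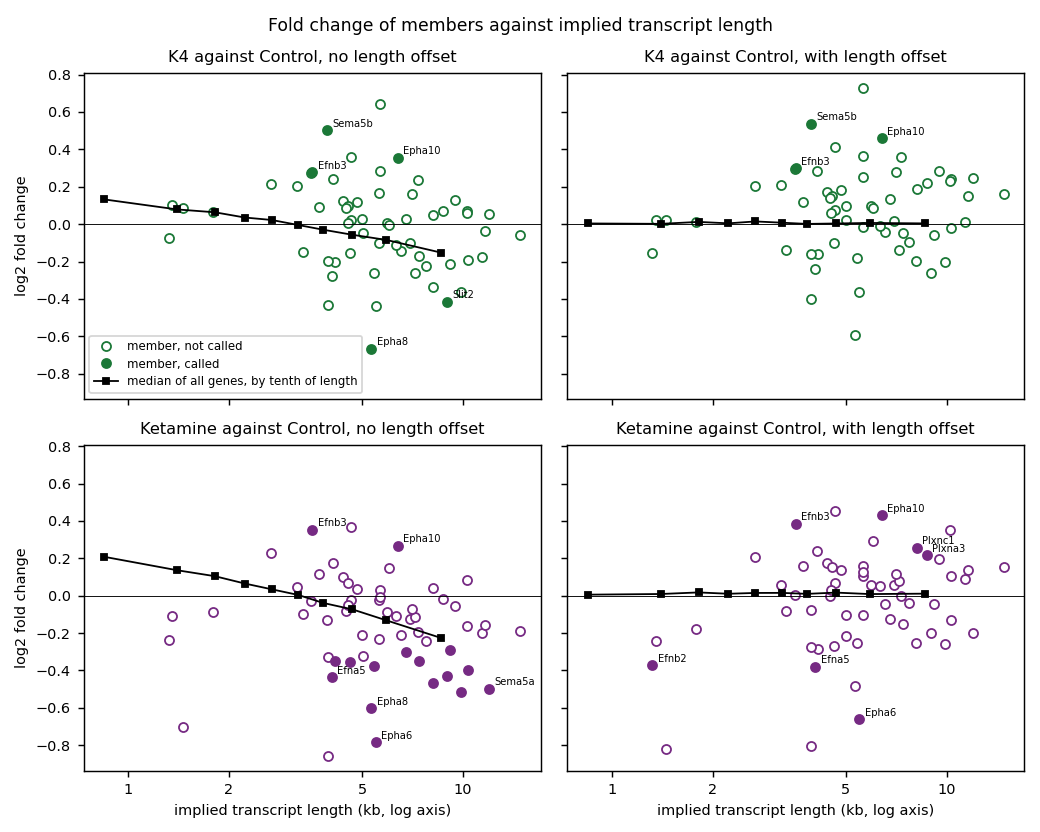
Log2 fold change (y axes) of the 59 members against implied transcript length (x axes, kb, log scale) for K4 against Control (top) and Ketamine against Control (bottom), without (left) and with (right) the length term. Circles are members, filled where called, and black squares join the medians of all genes in 10 bins of length; without the term the squares fall to −0.15 (K4) and −0.23 (Ketamine) in the bin of the longest genes, and in the lower left panel only some called members are named.

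Some markers of astrocytes, oligodendrocyte precursors, microglia, endothelial and mural cells were also called lower after ketamine. The other lists are given first. Of 5 upper layer neuron markers 3 were called lower and 1 higher, of 6 excitatory neuron markers 2 lower, and of 8 oligodendrocyte markers 0. Of 7 inhibitory neuron markers 1 was lower and 1 higher, of 7 deep layer markers 1 lower, and of 6 striatal neuron markers 0 lower and 1 higher. Of 7 meningeal, 5 blood cell and 3 choroid plexus and ependyma markers 0 were called. With the length term the lower calls in the upper layer, excitatory, oligodendrocyte, inhibitory and deep layer lists were 0, 2, 0, 1 and 1, beside 4.33% of all genes. The counts of markers called lower are read against 9.75% of all genes. Of 8 astrocyte markers 6 were called lower, with summed levels of 2051 to 2242 CPM in Ketamine and 2651 to 4236 CPM in Control. Of 7 endothelial markers 3 were called lower (168 to 201 CPM in Ketamine, 247 to 364 CPM in Control), and of 7 mural cell markers also 3 (97.3 to 139.6 CPM in Ketamine, 127 to 183 CPM in Control). Of 8 oligodendrocyte precursor markers 4 were called lower (231 to 253 CPM in Ketamine, 279 to 436 CPM in Control). Cspg4 stands in both the precursor and the mural list. Of 8 microglial markers 4 were called lower (330.3 to 348 CPM in Ketamine, 349 to 499 CPM in Control). In the astrocyte, endothelial, mural, precursor and microglial lists, Control library 2 was the highest Control library. Control libraries 1 and 3 summed to 3018 and 2651 CPM for astrocyte, 301 and 247 for endothelial and 157 and 127 for mural markers. For precursor markers they summed to 319 and 279 CPM, and for microglial markers to 383 and 349. With the length term, beside 4.33% of all genes, the lower calls after ketamine were 2 astrocyte, 3 endothelial, 2 mural, 2 precursor and 3 microglial markers. The median log2 fold change of the astrocyte markers was −0.46 with the term and −0.52 without it, and that of the precursor markers −0.33 and −0.45. After K4, calls were lower for 2 astrocyte, 2 endothelial, 1 mural, 1 precursor and 1 microglial marker, beside 3.8% of all genes, and with the length term for 1, 1, 1, 0 and 1 of them, beside 1.16%. Their part in the levels of Nrp1, Robo4, Sema3g or the plexin-Bs was not tested.

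The third comparison sets K4 against Ketamine directly, at the same day and after the same length of treatment, though by different routes and at doses the labels do not give. By edgeR 0 members and 0 of all 18047 genes (0%) were called. At an unadjusted p below 0.05 there were 10 members, all higher in K4, and 1648 genes (9.13%), of which 1020 were higher and 628 lower. With the length term there were 9 members, 8 higher and 1 lower, and 1356 genes, 791 higher and 565 lower. DESeq2 called 66 of the 25704 genes it held (56 higher, 10 lower), among them Sema5a, Sema5b and Nrp1, all higher in K4.

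Sema5a had 87.7, 103 and 87.0 CPM in K4 libraries, against 67.3, 58.7 and 63.7 CPM in Ketamine libraries. The groups did not overlap, and the log2 difference was 0.55 (95% interval 0.38 to 0.72, edgeR adjusted p = 0.082). Its call appeared in 2 of the 9 fits that left out a library, namely without Control library 2 and without Ketamine library 1. Sema5b had 13.4, 11.4 and 9.59 CPM in K4 libraries, against 7.31, 7.27 and 7.67 CPM in Ketamine libraries (log2 difference 0.63, 95% interval 0.36 to 0.90, edgeR adjusted p = 0.17). Nrp1 had 35.1, 35.8 and 32.7 CPM in K4 libraries, against 27.7, 27.9 and 27 CPM in Ketamine libraries (log2 difference 0.33, 95% interval 0.19 to 0.47, edgeR adjusted p = 0.17). In these 3 genes the K4 libraries all lay above the Ketamine libraries. Sema4a had 51.9, 52.4 and 51.7 CPM in K4 libraries, against 43.4, 45.1 and 38.1 CPM in Ketamine libraries (log2 difference 0.30, edgeR adjusted p = 0.33). In the other families the member with the smallest p was Sema3e of class 3 (log2 difference 0.43, edgeR adjusted p = 0.48), Slit1 (0.29, 0.51), Efna5 (0.16, 0.69) and Efnb2 (0.16, 0.60). Among the receptors it was Plxna1 (log2 difference 0.23, edgeR adjusted p = 0.38), Robo3 (0.61, 0.69), Epha6 (0.35, 0.50) and Ephb4 (0.27, 0.67). At an unadjusted edgeR p below 0.05, 5 of 8 oligodendrocyte, 4 of 7 endothelial and 5 of 7 deep layer markers were higher in K4. Lower were 2 of 5 upper layer and 1 of 7 inhibitory neuron markers, all beside 9.13% of genes. Oligodendrocyte sums were 2317 to 3128 CPM in K4 and 1619 to 2097 in Ketamine, and endothelial sums 218 to 249 and 168 to 201. Their part in these differences was not tested.

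For the genes higher after both compounds, the K4 minus Ketamine difference was small beside its interval. It was −0.075 for Efnb3 (95% interval −0.21 to 0.065) and 0.090 for Epha10 (−0.056 to 0.24) on the log2 scale. For Slit2 it was 0.018 (95% interval −0.19 to 0.22) and for Epha8 −0.063 (−0.42 to 0.30). Over the 59 members the median log2 difference was 0.13 with 10 negative (16.9%), against a median of 0.0018 and 49.5% negative over all genes tested, and with the length term the members' median was 0.059.

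Partners of these proteins were followed in 8 lists holding 83 tested genes: netrin and draxin ligands, netrin receptors, repulsive guidance molecules and FLRT proteins, adhesion coreceptors, effectors of semaphorin and plexin, of Slit and Robo and of Eph and ephrin signalling, and growth cone cytoskeleton. After K4, 9 of the 83 were called higher and 5 lower, beside 2.27% and 3.8% of all genes, with a median log2 fold change of −0.070. After ketamine, 6 were called higher and 27 lower, beside 6.95% and 9.75% of all genes, with a median of −0.12. With the length term the counts after K4 were 5 higher and 1 lower, beside 1.2% and 1.16% of all genes. After ketamine they were 8 and 8, beside 3.32% and 4.33%, and the median length of the 83 was 5.46 kb. Counts over all genes without single libraries are given above. For K4 the count ran from 1 call (without K4 library 2 or 3) to 18 (without Control library 2). For Ketamine it ran from 13 (without Ketamine library 2) to 36 (without Control library 2), with 18 without Ketamine library 3 and 22 without Control library 1.

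Nck1 and Nck2 stand in both the Slit and Robo list and the Eph and ephrin list, so the calls of these lists are not separate. Downstream of Slit and Robo, 5 of 10 genes were lower and 1 higher after ketamine. Srgap3, a GTPase-activating protein that binds Robo1, stood at −0.62 on the log2 scale (edgeR adjusted p = 0.00046), Enah, an actin regulator at growth cone tips, at −0.62 (0.0033) and Sos1, an exchange factor for Rac and Ras, at −0.36 (0.0036). After ketamine, Srgap3 and Enah kept their calls with the length term and Sos1 did not (−0.19, edgeR adjusted p = 0.097). After K4, Enah was lower (−0.50, edgeR adjusted p = 0.024) and Nck2, an adaptor, higher (0.28, 0.044). Both K4 calls were lost with the length term, at −0.40 (edgeR adjusted p = 0.062) for Enah and 0.28 (0.066) for Nck2. Among 15 Eph and ephrin effectors, 4 were lower and 3 higher after ketamine: Itsn1, a scaffold and exchange factor, at −0.42 (edgeR adjusted p = 0.0039), Sipa1l1, a synaptic GTPase-activating protein, at −0.36 (0.0045) and Pick1, which binds ephrin-Bs and AMPA receptors, at 0.39 (0.0057). After K4, 4 of these 15 were higher and none lower, with Pick1 at 0.33 (edgeR adjusted p = 0.030), Vav3, an exchange factor recruited by Eph receptors, at 0.49 (0.037) and Ngef, the ephexin of neurons, at 0.22 (0.043). Itsn1 and Pick1 kept their ketamine calls, and Vav3 its K4 call, with the length term. Sipa1l1 lost its call after ketamine (−0.17, edgeR adjusted p = 0.12), and Pick1 (0.29, 0.064) and Ngef (0.23, 0.062) lost theirs after K4.

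Among 15 semaphorin and plexin effectors, 3 were lower and 2 higher after ketamine. Rnd1, a small GTPase that binds plexins, was higher after ketamine (log2 fold change 0.50, edgeR adjusted p = 0.0025) and after K4 (0.40, 0.021). Gsk3b, a kinase acting on microtubule proteins, was lower after ketamine (−0.32, edgeR adjusted p = 0.0034) and after K4 (−0.24, 0.035), and Farp1, an exchange factor binding plexin-As, was lower after ketamine (−0.33, 0.0077). Mical2, an actin oxidoreductase, was the other one higher after K4 (0.22, edgeR adjusted p = 0.049). No gene of this list was called lower after either compound with the length term. Gsk3b then stood at −0.12 after ketamine (edgeR adjusted p = 0.24) and −0.11 after K4 (0.34), and Farp1 at −0.20 after ketamine (0.090). Rnd1 after ketamine and Mical2 after K4 kept their calls, and Rnd1 after K4 did not (0.35, edgeR adjusted p = 0.060). Among 17 cytoskeleton genes, 5 were lower and 1 higher after ketamine, led by Cfl1, which severs actin filaments (0.33, edgeR adjusted p = 0.0028), Trio, an exchange factor for small GTPases (−0.34, 0.0033), and Pak2, a kinase activated by Rac (−0.46, 0.010). After K4, 1 of the 17, Rock1, a kinase that acts on actomyosin, was lower (−0.28, edgeR adjusted p = 0.019) and 2 were higher, Cfl1 (0.24, 0.033) among them. Pak2 kept its ketamine call with the length term, and Cfl1 (0.19, edgeR adjusted p = 0.069) and Trio (−0.025, 0.85) lost theirs. After K4, Rock1 (−0.18, edgeR adjusted p = 0.11) and Cfl1 (0.15, 0.18) were not called with it.

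In the netrin system, Unc5d, a repulsive netrin receptor, was lower after K4 (log2 fold change −0.53, edgeR adjusted p = 0.0078) and after ketamine (−0.54, 0.0020), and kept both calls with the length term (−0.35 and −0.28). Dscaml1 was higher after K4 (0.28, edgeR adjusted p = 0.041), and Neo1 (−0.25, 0.017) and Dcc (−0.47, 0.049), both netrin receptors, were lower after ketamine. Dscaml1 kept its call with the length term, and Neo1 (0.0023, edgeR adjusted p = 0.99) and Dcc (−0.22, 0.44) did not. Of 7 netrin and draxin ligands, Ntng2, which is anchored to the axon membrane, was lower after ketamine (−0.46, edgeR adjusted p = 0.0083) and was not called after K4 (−0.24, 0.16). Its ketamine call held with the length term (−0.40, edgeR adjusted p = 0.026). Of 8 adhesion coreceptors, 4 were lower after ketamine, Chl1 (−0.43, edgeR adjusted p = 0.0059), Ncam1 (−0.24, 0.012) and Alcam (−0.41, 0.016) by the smallest p, and Alcam was lower after K4 (−0.41, 0.034). With the length term Chl1 and Alcam kept their ketamine calls, whereas Ncam1 after ketamine (−0.042, edgeR adjusted p = 0.68) and Alcam after K4 (−0.40, 0.057) were not called. Of 5 repulsive guidance and FLRT genes, Flrt1 (−0.43, edgeR adjusted p = 0.017) and Rgma (−0.36, 0.029) were lower after ketamine, and none was called after K4, where Rgma had the smallest p (−0.31, 0.093). Both ketamine calls were lost with the length term, at −0.12 for Flrt1 (edgeR adjusted p = 0.54) and −0.29 for Rgma (0.090). In K4 against Ketamine edgeR called 0 of the 83 (18 at an unadjusted p below 0.05, all higher in K4, beside the 1020 higher and 628 lower of all genes) and DESeq2 called 1, and the smallest p belonged to Srgap3 (log2 difference 0.40, edgeR adjusted p = 0.17). The genes with the smallest p of the other 7 lists, Vav3, Nfasc, Ssh1, Mical3, Flrt1, Dscaml1 and Ntng2, had log2 differences of 0.22 to 0.55 and edgeR adjusted p of 0.28 to 0.55.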

How the data were processed

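RNA sequencing libraries of rat mPFC, 3 each for K4, Ketamine and Control, were made from total RNA with the TruSeq Stranded mRNA kit, per the labels' protocols. The submitters' processing notes name HISAT2 2.1.0, StringTie 2.1.3b, bcl2fastq 2.20.0 and Trimmomatic, and build rn6. How reads were counted, and with which strand setting, is not given in the sources used here, which leaves overlapping and antisense genes uncertain. The deposited table of the whole series holds unnormalised counts, and the authors' files for single libraries hold FPKM and TPM, per the file headers. All sample columns of the count table were matched to samples by their titles. Spreadsheet dates stood in place of 27 symbols, none of them a member, and were restored by gene ID.

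From the counts, genes were filtered by edgeR's filterByExpr (minimum count 10, minimum total 15) to 18047 genes, scaled by TMM, and fitted over all 9 libraries with 3 group terms in edgeR 4.0.16 (R 4.3.3), by the robust quasi-likelihood test with Benjamini-Hochberg adjustment over all genes. The common biological coefficient of variation was 10.2%. Intervals cover 95%. Library totals ran from 27122207 to 42731004 counts, which sets the precision of low genes. No 2 libraries agreed within sampling noise. Transcript length in kb was implied by counts, library total and FPKM. The length term is a loess trend (span 0.5) of each library's log2 CPM deviations on log2 length, entered as an offset. It was an alternative setting, as were DESeq2 1.42.0, limma 3.58.1 on log2(FPKM + 0.1), log2(FPKM + 1) and log2(TPM + 0.1), other scalings and filters, the replicate block and leaving out each library. The test was first run on simulated counts that held no length trend and no deviating library. That run does not cover these features of the data, and its results are not given here.

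Members, gene lists, alternatives and tests were chosen with earlier results of these data known. Named are members called in any comparison, the highest member of each family by TPM, the smallest-p member where a family had none called, and up to 3 called genes per list by smallest p, or otherwise its smallest-p gene. Of 184 list entries, Hjv and Slco1a4 did not match the count table. Promoters came from a RefSeq table of GRCr8. Sema4a, Robo4, Efnb2, Plxnc1 and Plxna3 fall outside this rule in the comparisons where they are given and were chosen after their values were seen. The value of 1 gene of the growth cone list, called higher after K4, is not reported here.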

Additional observations from a re-analysis of the deposited data

How the results depend on the processing

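Over all alternatives no direction of a named member that was called reversed. Other scalings changed few calls, but the split of all called genes moved: upper quartile scaling gave 527 higher and 563 lower for K4 against Control and 1587 higher and 1549 lower for Ketamine against Control, with median log2 fold changes of the members of 0.041 for K4, and leaving out mitochondrial genes gave 0.035 for K4. With the length term, called genes numbered 427 (K4), 1381 (Ketamine) and 0 (K4 against Ketamine), members 3, 7 and 0, list genes 6, 16 and 0, and the members' median log2 fold change was 0.087, 0.0025 and 0.059. The cause of these and the following differences was not tested. DESeq2 called 1883 genes, 11 members and 26 list genes for K4 against Control and 66 genes, 3 members and 1 list gene for K4 against Ketamine. With only the 2 groups compared in the fit, K4 against Control gave 452 genes, 2 members and 1 list gene, and K4 against Ketamine gave 27 genes, 1 member and 1 list gene. Without a filter on low counts, K4 against Ketamine gave 6 genes and 1 member. DESeq2 and the fit without a filter held 25704 genes and 60 members, against 18047 and 59 in the main fit. The fits of only 2 groups held 17882 genes and 60 members for K4 against Control, and 17730 and 58 for K4 against Ketamine.

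On log2(FPKM + 0.1), limma called 638 genes (454 higher, 184 lower), 2 members and 7 list genes for K4 against Control, with a members' median of 0.077, 2630 genes and 8 members for Ketamine against Control, and 2 genes for K4 against Ketamine. On log2(FPKM + 1) it called 659 genes, 3 members and 7 list genes for K4 (median 0.059), 2639 genes and 8 members for Ketamine, and 2 genes for K4 against Ketamine (median 0.10). On log2(TPM + 0.1) without a filter it called 24 genes, 0 members and 0 list genes for K4 (median 0.20), 695 genes, 0 members and 5 list genes for Ketamine (median −0.0099), and 1 gene for K4 against Ketamine (median 0.18). The limma fits held 15067 genes and 55 members on FPKM, and 25704 genes and 60 members on TPM. By deposited TPM, 26 members had a higher mean in Ketamine than in Control (14 by CPM), and 11 and 6 of 14 marker lists had a higher sum in K4 and in Ketamine than in Control (6 and 3 by CPM).

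By the labels, samples with the same number shared only that number. Correlations of their deviations from the group means ran from 0.0024 to 0.11, and those of samples with different numbers from −0.16 to 0.069. Between K4 and Ketamine, same-number pairs stood at 0.050 to 0.076 and the others at −0.053 to −0.020. K4 library 3 correlated more with Control library 1 (0.069) than with Control library 3 (0.0024). With the replicate block, 8 members were called for K4 against Control, beside 1168 of 18047 genes, 18 for Ketamine against Control, beside 3191, and 0 for K4 against Ketamine, beside 1. With the replicate block and the length term together, K4 against Control gave 491 genes, 2 members, 9 list genes and a median of 0.097, Ketamine against Control gave 1384 genes, 10 members, 14 list genes and a median of 0.0030, and K4 against Ketamine gave 1 gene and a median of 0.049.

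Leaving out each library in turn gave, for K4 against Control, 174 to 1548 genes, 0 to 12 members, 1 to 18 list genes and members' medians of −0.0074 to 0.054. For Ketamine against Control it gave 1177 to 3191 genes, 8 to 18 members, 13 to 36 list genes and medians of −0.19 to −0.10. For K4 against Ketamine it gave 0 to 27 genes, 0 to 1 members, 0 to 1 list genes and medians of 0.11 to 0.15. Low counts limit Epha1, Efna4, Epha2, Robo4, Efna1, Robo3 and Efna2 most, in rising order of mean CPM over all libraries (0.27 to 2.62).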

Other observations

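Lists of cell type markers were read beside the guidance genes. Calls after K4 stand beside 2.27% of all genes higher and 3.8% lower, and calls after ketamine beside 6.95% and 9.75%. With the length term these shares were 1.2% and 1.16% after K4 and 3.32% and 4.33% after ketamine. Of 6 excitatory neuron markers, edgeR called 0 after K4 (2 at an unadjusted p below 0.05) and 2 were lower after ketamine, Camk2a, a synaptic kinase (log2 fold change −0.52, edgeR adjusted p = 0.020), and Tbr1, a transcription factor (−0.27, 0.039). Of 7 inhibitory neuron markers, Gad2, which makes GABA, was lower (−0.63, edgeR adjusted p = 0.0018) and Pvalb, of fast-spiking interneurons, higher (0.36, 0.017) after ketamine, and 0 were called by edgeR after K4, where 3 had an unadjusted p below 0.05. Of 7 deep layer markers, Rprm (1.07, edgeR adjusted p = 0.0062) and Syt6 (0.95, 0.029) were higher after K4, whereas Syt6 was lower after ketamine (−0.84, 0.032). Of 5 upper layer markers, Cux2 and Rorb were lower after both compounds, with log2 fold changes of −0.46 and −0.44 after K4 and −0.42 and −0.43 after ketamine, and Cux1 was lower (−0.32) and Lamp5 higher (0.38) after ketamine. With the length term, Cux2 after K4 (−0.34, edgeR adjusted p = 0.031) and Lamp5 after ketamine (0.32, 0.038) kept their calls. Rorb was then not called after K4 (−0.29, edgeR adjusted p = 0.12), nor were Cux2 (−0.23, 0.075), Rorb (−0.20, 0.21) and Cux1 (−0.18, 0.20) after ketamine. Of the neurons' other calls, Pvalb after ketamine (0.16, edgeR adjusted p = 0.31) and Syt6 after K4 (0.90, 0.055) were lost with that term. The deep layer markers called higher after K4 still numbered 2 with it, so that a marker not called before was among them.

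Of 8 oligodendrocyte markers, 1, Cldn11, was called, higher after K4 (0.41, edgeR adjusted p = 0.034). By edgeR 0 of 7 meningeal markers were called (2 for K4 and 1 for Ketamine at an unadjusted p below 0.05), with sums of 66.6 to 253 CPM in K4, 155 to 228 CPM in Ketamine and 90.9 to 145 CPM in Control. The 5 blood cell and 3 choroid plexus and ependyma markers tested had no call and no unadjusted edgeR p below 0.05 in either comparison with Control. Of 6 striatal neuron markers, Ppp1r1b was higher after K4 (0.45, edgeR adjusted p = 0.013) and after ketamine (0.31, 0.029), and Rgs9 was higher after K4 (0.84, 0.044), with sums of 168 to 184 CPM in K4, 165 to 174 CPM in Ketamine and 159 to 173 CPM in Control. With the length term, Ppp1r1b after K4 kept its call (0.41, edgeR adjusted p = 0.030), and Ppp1r1b after ketamine (0.24, 0.11), Rgs9 after K4 (0.83, 0.066) and Cldn11 after K4 (0.38, 0.069) did not.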
